A study of Homo sapiens with 12 samples.

Results

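The genes described here are the well-expressed members of the human ZNF series, that is, genes whose symbol is ZNF followed by a number and at most 1 further capital letter, with a mean level of 10 TPM or more (transcripts per 1000000) over all 12 libraries. Pseudogene and antisense symbols were not taken, and 1 further gene was left out by the rule. Of 514 such symbols among the 58288 genes listed, 175 reached this level and 339 did not. The members were selected on their mean TPM over these libraries, so levels are given as a description, and only differences between groups were tested.

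RNA was sequenced from FaDu cells, an established head and neck squamous cell carcinoma (HNSCC) line, grown in DMEM with 10% FBS. STING WT cells carried the genotype label WT and STING KO cells lacked STING, the innate immune adaptor encoded by the gene listed as TMEM173. Both were made from Cas9-expressing cells with a lentiviral guide RNA, non-targeting in the control and directed against STING in the KO. The sources used here do not say whether a line was a single clone. With a single guide RNA per line, KO against WT cannot separate the loss of STING from other differences between the lines. Each line was left unirradiated (0Gy) or given 4 daily fractions of 2 Gy (RT), with 3 libraries in each of the 4 groups. Nothing states that the 3 libraries of a group came from separate cultures, so the p-values measure the spread between these libraries, which may be technical.

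TMEM173 lay between 5.18 and 7.41 TPM in the 6 KO libraries and between 21.1 and 26.1 TPM in the 6 WT libraries, without overlap, which matches the labels. All 10 squamous epithelial markers checked were present, with a lowest value of 48.5 TPM for KRT6A. Of the 13 markers of other cell types, 9 were at or near 0 (at most 0.402 TPM, with PTPRC at most 0.0894 and PECAM1 at most 0.0989 TPM, and LUM at 0 in every library). The other 4 were present in every library, COL1A1 at 6.34 to 9.23 TPM, CD68 at 14.7 to 31.1 TPM, CDH5 at 8.51 to 19.8 TPM and VWF at 2.60 to 4.49 TPM. Some marker sums differed between unirradiated and irradiated libraries. The squamous sum was lower without overlap in both lines, at 9149 to 9220 TPM before and 8534 to 9021 TPM after irradiation in WT cells and at 8906 to 10639 TPM before and 7831 to 8815 TPM after it in KO cells. The endothelial sum was higher, at 11.5 to 15.9 TPM in unirradiated and 18.3 to 23.9 TPM in irradiated libraries. The immune sum, almost all of it CD68, was 16.3 to 22.2 TPM before and 24.5 to 31.2 TPM after irradiation in WT cells, without overlap, while in KO cells it was 14.7 to 24.7 and 17.2 to 25.0 TPM. The fibroblast sum lay between 6.40 and 9.36 TPM, with overlap between 0Gy and RT in WT but not in KO cells. The part of these sums in the results below was not tested.

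C2H2 zinc fingers are small protein folds in which a pair of cysteines and a pair of histidines hold a zinc ion, and arrays of them read DNA or bind RNA. Many ZNF proteins of primates also carry a KRAB box, which recruits the co-repressor TRIM28 and, through it, histone H3K9 methylation, above all over transposable elements. A SCAN box, in contrast, joins such proteins in pairs. STING acts upstream of interferon genes, whose products drive transcription through interferon-stimulated response elements.

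The promoters of ZNF genes rarely held the core of that element, searched as GAAA, any 2 bases and GAAA again on both strands. A RefSeq promoter window of 300 bases was matched for 151 of the 175 genes, and 2 of these (1.32%) held the core, against 5 of 275 ZNF genes below the level threshold (1.82%) and 996 of 27305 genes with a promoter (3.65%). The median GC content of the promoters was 63.3% in members, 60.0% in ZNF genes below the threshold and 58.3% in all genes. The part of base composition in the motif shares was not tested. The motif-bearing promoters of members are those of ZNF207, the most abundant member, and ZNF189, and they are shown because they are the whole of that overlap. Each is written 5′ to 3′ on the plus strand of GRCh38.p14, up to its GENCODE 29 or RefSeq start, whichever comes first (for ZNF207 the GENCODE start, before the RefSeq one), with the match in capitals (in ZNF189 it lies on the opposite strand). ZNF207 covers chr17:32349907-32350116 and ZNF189 covers chr9:101398601-101398850.
ZNF207: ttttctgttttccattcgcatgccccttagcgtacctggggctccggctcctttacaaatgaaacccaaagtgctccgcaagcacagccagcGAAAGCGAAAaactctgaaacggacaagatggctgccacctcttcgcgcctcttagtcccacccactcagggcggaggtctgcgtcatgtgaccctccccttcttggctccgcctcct
ZNF189: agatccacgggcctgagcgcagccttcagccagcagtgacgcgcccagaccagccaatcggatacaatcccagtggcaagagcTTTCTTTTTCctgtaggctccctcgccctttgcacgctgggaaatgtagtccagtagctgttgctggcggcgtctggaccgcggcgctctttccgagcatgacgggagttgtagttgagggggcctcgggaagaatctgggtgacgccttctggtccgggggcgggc

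The third promoter shown is that of ZNF362, the member with the smallest p-value after irradiation in both lines. It covers chr1:33256242-33256491 on the plus strand of the same build, and its 44 CG dinucleotides are in capitals. Over its 300 bases this window held 51 CG dinucleotides, against a median of 24 over the members and 14 over all genes. It did not hold the interferon core.
ZNF362: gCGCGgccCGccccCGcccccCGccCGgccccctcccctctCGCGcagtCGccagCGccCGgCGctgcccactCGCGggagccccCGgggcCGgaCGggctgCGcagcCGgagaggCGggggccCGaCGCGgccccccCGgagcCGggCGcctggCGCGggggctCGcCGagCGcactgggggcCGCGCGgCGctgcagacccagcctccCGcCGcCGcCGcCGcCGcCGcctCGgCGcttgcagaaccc

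The members differed widely in level (the plot of levels by rank shows each of them). ZNF207, a kinetochore and spindle assembly protein, was the most abundant with a mean of 250.7 TPM and single libraries between 228.7 and 281.1 TPM. It was followed by ZNF146, a protein made almost wholly of fingers, at 163.3 TPM and by ZNF664 at 154.4 TPM. Next came ZNF410, known as an activator of the CHD4 gene (125.4 TPM), and the nuclear protein ZNF638 (118.5 TPM). ZNF385A, an RNA-binding protein of the p53 pathway (102.1 TPM), ZNF644, a partner of the G9a and GLP histone methyltransferases (101.4 TPM), and ZNF770 (80.9 TPM) completed the 8 highest. Neighbours in this order often overlapped. ZNF385A and ZNF644 had means within 1 TPM of each other while ZNF644 ranged from 66.8 to 123.4 TPM. At the threshold, ZNF765 (10.2 TPM), ZNF519 (10.2 TPM) and ZNF668 (10.3 TPM) were just inside, and ZNF791 (9.88 TPM), ZNF224 (9.85 TPM) and ZNF524 (9.83 TPM) just outside.

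**Figure D1:**
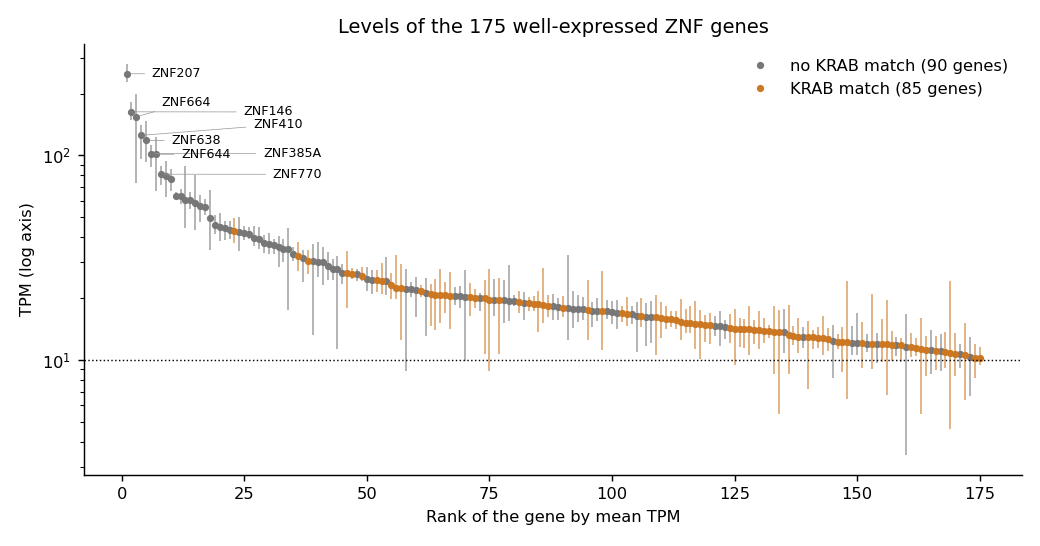
Mean TPM over 12 libraries (points, log axis) against rank for the 175 genes, with vertical lines from the lowest to the highest library and the dotted line at 10 TPM. The 8 most abundant genes are named, none of them with a KRAB match, and all but 1 of the 85 genes with a KRAB match lie below 40 TPM.

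A KRAB match was found in the translated coding sequence of 85 of the 175 members (48.6%) and of 257 of the 333 ZNF genes below the threshold that had a usable gene model (77.2%). The 85 had a median of 15.1 TPM and a highest level of 42.9 TPM (ZNF655), whereas the other 90 had a median of 24.5 TPM, and 25 of them had 40 TPM or more. The 8 highest genes all lacked the match. Matches to the C2H2 pattern numbered 11 at the median in the KRAB members (0 to 32, the highest in ZNF91) and 7 in the others (0 to 34, the highest in ZNF462). The human KRAB genes are known to lie in large clusters on chromosome 19. That chromosome held 47 members (26.9%), 33 of them with a KRAB match, and 202 of the 339 genes below the threshold (59.6%). A SCAN match was found in 11 members, of which 7 also had a KRAB match.

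As a whole the set kept nearly the same share of the transcriptome in every library. The 175 genes summed to 4722 to 4952 TPM, that is, 0.472% to 0.495% of all transcripts. The sum was 4806 ± 48.7 TPM (SD, n = 3) in unirradiated WT cells and 4772 ± 48.5 TPM (SD, n = 3) in unirradiated KO cells. After irradiation it was 4858 ± 120.1 TPM (SD, n = 3) in WT and 4861 ± 19.9 TPM (SD, n = 3) in KO cells. The smallest p of a two-sided exact permutation test with 3 libraries a side is 0.1. By that exact test the KO and WT sums gave p = 0.5 without and p = 1 with irradiation. The same exact test gave p = 0.5 for irradiation in WT cells and p = 0.1 in KO cells, where every irradiated library was above every unirradiated one and the mean differed by 1.88%. The sum was not recomputed under other scalings, and no gene set of like size was summed beside it. In bulk RNA, a change in the share of a cell type and a change in RNA per cell cannot be told apart.

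Single genes were tested with limma on log2(TPM + 1), with p-values adjusted by the Benjamini-Hochberg method over all 15973 genes tested and a threshold of 0.05. All 175 members passed the filter on low values, and fold changes below are differences on this log2 scale with their standard errors. In unirradiated cells the question was whether the KO line differed from the WT line in ZNF expression without irradiation. None of the 175 members passed the threshold there, while 1.73% of all genes tested did (0.463% higher and 1.26% lower). An unadjusted p under 0.05 was found for 16 members (9.14%), beside 14.3% of all genes tested. Values of the 2 lines were fully separated for 36 members, 14 higher and 22 lower in KO, or 20.6% of them, beside a background of 20.6% (8.51% higher and 12.1% lower). Across the members the median difference was -0.03 and across all genes it was -0.02.

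The smallest p-values of that comparison belonged to ZNF398, ZNF266 and ZNF710, given here as values. ZNF398, a KRAB gene, was at 18.4, 16.5 and 17.1 TPM in WT and at 14.8, 14.7 and 14.1 TPM in KO (difference -0.24 ± 0.06, SE, adjusted p = 0.087). ZNF266, another KRAB gene, was at 16.4, 16.5 and 17.8 TPM in WT and at 9.50, 13.4 and 14.8 TPM in KO (difference -0.42 ± 0.13, SE, adjusted p = 0.16). ZNF710 was at 23.1, 23.3 and 24.2 TPM in WT and at 25.6, 27.1 and 28.6 TPM in KO (difference 0.19 ± 0.06, SE, adjusted p = 0.16). The groups did not overlap for any of these 3 genes, yet none was called. With unirradiated WT replicate 3 left out, 1 member was called in this comparison.

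After irradiation, 3 KRAB genes differed between KO and WT cells, beside 3.59% of all genes tested (0.927% higher and 2.66% lower). An unadjusted p under 0.05 was found for 23 members (13.1%), beside 17.9% of all genes tested. ZNF431 rose in KO relative to WT, and ZNF746 and ZNF195 fell. The libraries did not overlap for 33 members, 12 higher and 21 lower, beside a background of 24.1% (9.62% higher and 14.5% lower). The median difference of the members was -0.03, and that of all genes -0.02.

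ZNF431, on chromosome 19 (chr19:21142024-21196053), had 8.45, 6.35 and 9.60 TPM in WT and 14.02, 11.6 and 15.2 TPM in KO cells after irradiation. Every KO library was above every WT library. The difference was 0.69 ± 0.13 (SE, adjusted p = 0.020), a ratio of 1.61 in TPM + 1. In unirradiated cells the same gene differed by 0.11 ± 0.13 (SE, adjusted p = 0.77), with overlapping libraries. Its call was lost without irradiated KO replicate 1 or 3 or irradiated WT replicate 1 or 2 (adjusted p = 0.064, 0.080, 0.056 and 0.052).

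ZNF746, also called PARIS and known as a repressor of PPARGC1A, lies at chr7:149472696-149497817. It was at 14.5, 14.9 and 15.8 TPM in irradiated WT and at 12.6, 11.5 and 12.3 TPM in irradiated KO cells, without overlap. The fall was small and even across libraries, at -0.29 ± 0.06 (SE, adjusted p = 0.020). In unirradiated cells the difference was -0.06 ± 0.06 (SE, adjusted p = 0.67). Its call was lost without irradiated KO replicate 2 or 3 or irradiated WT replicate 2 or 3 (adjusted p = 0.071, 0.053, 0.063 and 0.074).

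ZNF195, at chr11:3339261-3379222, was at 29.6, 31.2 and 28.0 TPM in irradiated WT and at 21.8, 18.0 and 21.1 TPM in irradiated KO cells. These values did not overlap, and the unirradiated KO libraries (25.1, 34.2 and 25.4 TPM) spanned the WT level. The difference after irradiation was -0.53 ± 0.11 (SE, adjusted p = 0.033) and before it -0.04 ± 0.11 (SE, adjusted p = 0.91). Its call was lost without any 1 of the 6 irradiated libraries, with an adjusted p between 0.052 and 0.12.

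Irradiation of WT cells lowered ZNF362 and ZNF488 and raised ZNF503. Thus 3 of the 175 members passed, beside 3.74% of all genes tested (2.24% higher and 1.5% lower). In this comparison 23 members (13.1%) had an unadjusted p under 0.05, beside 18.2% of all genes tested. In KO cells irradiation lowered ZNF362, ZNF488 and ZNF131 and raised ZNF680, so that 4 passed, beside 3.69% (2% higher and 1.7% lower). There 25 members (14.3%) had an unadjusted p under 0.05, beside 18.1% of all genes tested. The libraries of a line did not overlap between 0Gy and RT for 34 members in WT cells (20 higher, 14 lower, beside 24.8% of all genes, 14.7% higher and 10.1% lower) and for 35 in KO cells (23 higher, 12 lower, beside 24.3%, 13.7% higher and 10.6% lower). The members' median was 0.03 in both lines, and that of all genes 0.02 in both.

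ZNF362, a C2H2 factor without a KRAB match at chr1:33256545-33300719, gave the smallest p-value of any member in both lines. It was at 30.7, 32.4 and 29.8 TPM in unirradiated and at 24.9, 24.5 and 25.4 TPM in irradiated WT cells. In KO cells it was at 33.7, 32.9 and 33.9 TPM before and at 26.1, 25.9 and 26.2 TPM after irradiation. All 6 irradiated libraries thus lay below all 6 unirradiated ones. The difference was -0.30 ± 0.05 in WT (SE, adjusted p = 0.0066) and -0.35 ± 0.05 in KO (SE, adjusted p = 0.0029). These are ratios of 0.81 and 0.78 in TPM + 1. The difference between the 2 effects was -0.05 with a 95% interval from -0.20 to 0.09. No library left out changed either call. A fit to only the 6 libraries compared gave an adjusted p of 0.080 in WT cells.

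ZNF488, at chr10:47365496-47384273, is known for its part in oligodendrocyte development. It was at 34.1, 33.6 and 35.4 TPM in unirradiated and at 26.3, 24.6 and 24.7 TPM in irradiated WT cells. In KO cells it was at 35.7, 32.8 and 34.4 TPM before and at 27.7, 27.1 and 23.3 TPM after irradiation, again without overlap. The fall was -0.43 ± 0.07 in WT (SE, adjusted p = 0.0080) and -0.39 ± 0.07 in KO (SE, adjusted p = 0.015). The 2 effects differed by 0.05, with a 95% interval from -0.17 to 0.26. In KO cells the call was lost without unirradiated replicate 1 or 3 (adjusted p = 0.056 and 0.054).

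ZNF503, a co-repressor of the NET family at chr10:75397830-75401906, was at 17.1, 14.3 and 14.8 TPM in unirradiated and at 21.8, 19.5 and 18.4 TPM in irradiated WT cells. In KO cells it was at 17.7, 16.9 and 17.5 TPM before and at 18.5, 18.5 and 19.3 TPM after irradiation. The libraries did not overlap in either line, but only the WT difference was called (0.35 ± 0.08, SE, adjusted p = 0.036), and that of KO was 0.10 ± 0.08 (SE, adjusted p = 0.54). The effects differed by -0.25 (adjusted p = 0.75), so a difference between the lines was not shown. The WT call was lost in 9 of the 12 fits with 1 library left out, and was kept without unirradiated WT replicate 1, irradiated WT replicate 3 or irradiated KO replicate 3, with an adjusted p between 0.025 and 0.12 over the 12. Its exons overlap those of the antisense gene ZNF503-AS2, whose reads cannot be told apart if the counting ignored strand, which is not given in the sources used here.

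ZNF680, a KRAB gene at chr7:64519884-64563106, was at 20.2, 21.8 and 19.95 TPM in unirradiated and at 24.5, 25.4 and 24.2 TPM in irradiated KO cells. In WT cells it was at 22.8, 23.0 and 22.6 TPM before and at 26.7, 25.4 and 23.8 TPM after irradiation. Both lines were higher after irradiation in every library. The difference was 0.25 ± 0.06 in KO (SE, adjusted p = 0.041) and 0.14 ± 0.06 in WT (SE, adjusted p = 0.22). The KO call was kept only without irradiated WT replicate 1 or 3, and the adjusted p lay between 0.042 and 0.13 over the 12 fits with 1 library left out.

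ZNF131, a BTB-domain factor at chr5:43065176-43192021, showed the widest called difference after irradiation in KO cells. It was at 71.8, 88.4 and 71.5 TPM before and at 49.6, 51.5 and 44.2 TPM after irradiation in KO cells, without overlap. In WT cells its unirradiated libraries were spread from 46.0 to 75.3 TPM around irradiated values of 61.2, 62.1 and 56.0 TPM. The difference was -0.66 ± 0.16 in KO (SE, adjusted p = 0.048) and 0.07 ± 0.16 in WT (SE, adjusted p = 0.87). The KO call was kept only without unirradiated WT replicate 1 or 3, and the adjusted p lay between 0.0090 and 0.14 over the 12 fits with 1 library left out.

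**Figure D2:**
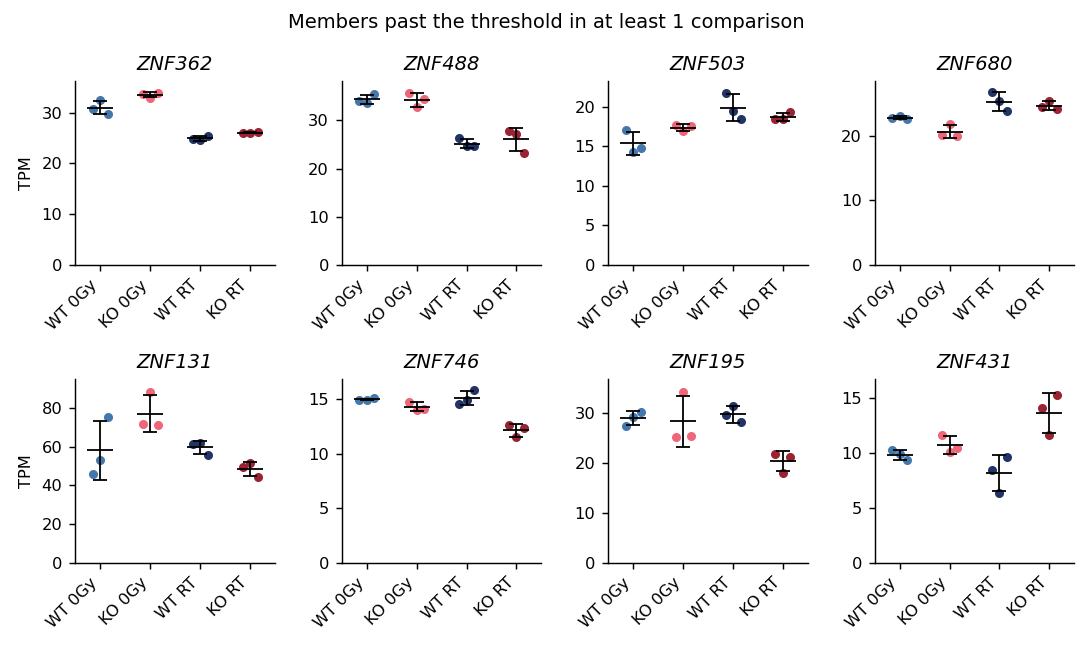
TPM in every library of the 8 members past the threshold in at least 1 comparison, by line and treatment, with the mean (bar) and SD (whiskers) of 3 libraries and axes from 0. ZNF362 and ZNF488 are lower in all irradiated than in all unirradiated libraries, and ZNF746, ZNF195 and ZNF431 separate KO from WT after irradiation.

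The fold changes of the 2 lines after irradiation rest on separate libraries and can be set side by side. The calls do not, since the same fit to all 12 libraries gave each gene the same standard error in both lines. A gene called in both lines was therefore not called by independent tests. ZNF362 and ZNF488 were called in both lines, that is, 2 of the 3 members called in WT and 2 of the 4 called in KO. Of all genes tested, 2% were called in both. The differences of the 175 genes in WT and KO cells had a Pearson's r of 0.30 and a Spearman's rho of 0.27 across genes, which are not independent replicates, beside 0.31 and 0.34 over all genes tested. The direction was shared by 107 members (61.1%) and by 64.3% of all genes. For 13 members the libraries did not overlap in either line and moved the same way, 9 higher and 4 lower, beside a background of 9.49%. The 4 lower were ZNF362, ZNF488, ZNF385A and ZNF395, and among the 9 higher ZNF200 differed most (0.43 ± 0.11 in WT and 0.39 ± 0.11 in KO, SE, adjusted p = 0.058 and 0.080). These members were named after their values were seen, and apart from ZNF362 and ZNF488 no other member was called in both lines.

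**Figure D3:**
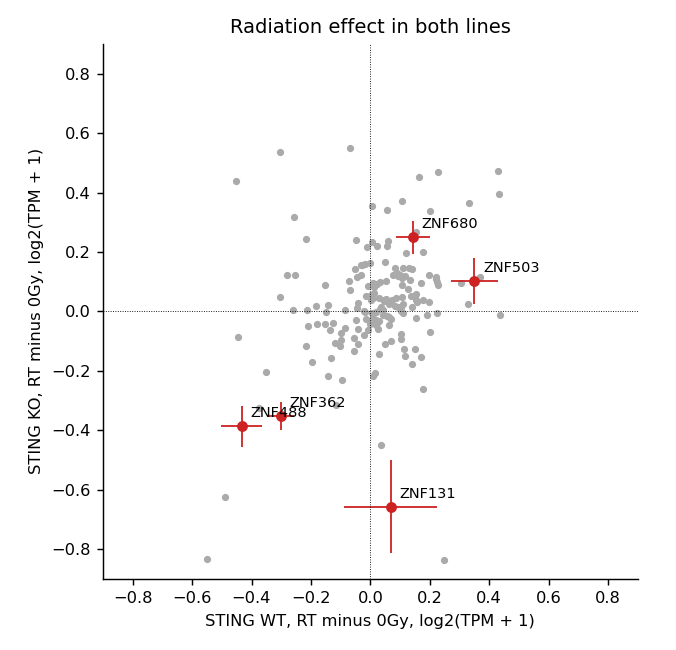
Radiation effect in STING WT (x axis) and STING KO cells (y axis) as differences in log2(TPM + 1), 1 point per gene, with members called in at least 1 line in red with standard errors. ZNF362 and ZNF488 lie in the lower left quadrant, called in both lines, while ZNF131 lies near 0 on the WT axis.

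The test of the difference between the 2 radiation effects called no member and 0.0188% of all genes. An unadjusted p under 0.05 was found for 9 members (5.14%), beside 6.61% of all genes tested. The smallest p-values were those of ZNF131 (-0.73 ± 0.22, SE, adjusted p = 0.67), ZNF574 (-0.27 ± 0.09, SE, adjusted p = 0.68) and ZNF431 (0.57 ± 0.19, SE, adjusted p = 0.68). ZNF574, a KRAB-free gene, was at 16.4, 15.6 and 15.1 TPM before and 18.1, 18.3 and 18.1 TPM after irradiation in WT cells. In KO cells it was at 17.2, 16.7 and 16.9 TPM before and 16.0, 17.3 and 14.99 TPM after. None of the effects called in 1 line was therefore shown to differ from that of the other line.

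**Figure D4:**
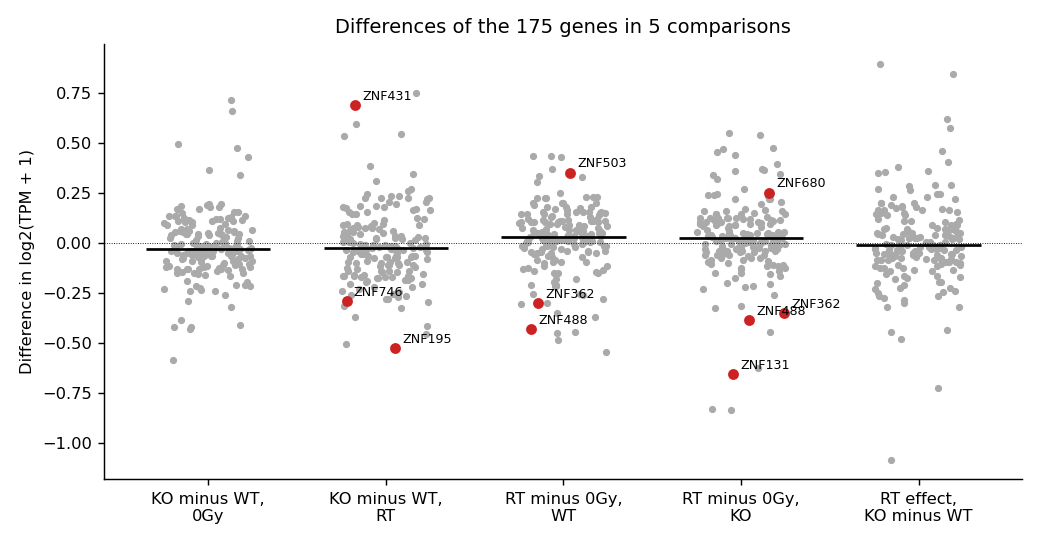
Differences in log2(TPM + 1) of the 175 genes (grey points) in the 5 comparisons, with members past the threshold in red and named, and the median as a black line. The medians lie between -0.03 and 0.03, and no member is past the threshold in the first and the last comparison.

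The precision of these tests bounds the size of most differences. Fold bounds are given on TPM + 1, where a change is smaller than the same change in TPM. The 95% interval lay wholly within a 1.5-fold change in either direction for 147 of the 175 members for KO against WT without irradiation. With irradiation it did so for 140. It did so for 142 members for irradiation in WT cells, for 140 in KO cells and for 120 for the difference of the radiation effects. Among all tested genes with a mean of 10 TPM or more the shares were 83.4%, 82.0%, 82.2%, 82.1% and 72.3%, in the same order. The share of members was slightly higher than this for KO against WT without irradiation and lower in the rest. Within 2-fold the numbers were 164, 163, 167, 163 and 155, beside 95.1%, 94.5%, 95.3%, 95.2% and 89.7% of those genes. Such bounds were therefore not particular to the members. The SD between libraries of a group was 0.12 at the median on the log2 scale, against 0.11 over all genes with a mean of 10 TPM or more. By class it was 0.14 in the KRAB members and 0.11 in the others.

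By class, 3 of the 85 KRAB members were called for KO against WT after irradiation, beside 3.59% of all genes tested, and 1 for irradiation in KO cells, beside 3.69%. Of the 90 members without a KRAB match, 3 were called for irradiation in WT cells, beside 3.74%, and 3 in KO cells. These counts are near or below the background, and a difference between the classes was not tested. The median differences in the 4 pairwise comparisons were -0.06, -0.03, 0.02 and 0.04 in the KRAB members (85 genes) and -0.02, -0.02, 0.05 and 0.01 in the others (90 genes). None of the 11 SCAN members was called in any comparison, and of the 47 members on chromosome 19 ZNF431 alone was called. The background over all genes tested was 1.73% to 3.74%, so neither count sets these genes apart.

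Few genes on the lists drawn up for roles other than KRAB repression were called, beside 1.73% to 3.74% of all genes tested in the 4 pairwise comparisons. At that share, lists this short would hold few calls or none. In the list of RNA and ribosome proteins, 10 genes of which ZNF473 was below the level threshold, none was called in any comparison. It holds ZNF598, the ubiquitin ligase of collided ribosomes (34.4 to 67.8 TPM), ZNF622, a factor of the large ribosomal subunit (58.1 to 68.7 TPM), and ZNF593 (25.4 to 37.5 TPM), which came nearest, with a difference of -0.32 ± 0.09 between KO and WT after irradiation (SE, adjusted p = 0.10). In the list of chromatin and co-repressor partners, 13 genes of which ZNF703 was below the level threshold, none was called either. It holds ZNF609, at 61.0 to 66.0 TPM, the co-repressor partner ZNF217 (30.3 to 39.0 TPM) and the SUMO ligase ZNF451 (38.9 to 47.7 TPM). ZNF516, also on it, differed by -0.37 ± 0.11 after irradiation in WT cells (SE, adjusted p = 0.091). In KO cells the difference of ZNF516 was -0.33 ± 0.11 (SE, adjusted p = 0.13). ZNF503, the co-repressor called above for irradiation in WT cells, was not put on this list. Among the 8 sequence-specific factors, which include the promoter factor ZNF143 (28.6 to 40.2 TPM) and ZNF384 (62.6 to 93.5 TPM), only ZNF131 was called. ZNF263, also among them, had both a KRAB and a SCAN match, so this list is not free of KRAB members. ZNF207, the mitosis gene, had differences between -0.08 and 0.07 in the 4 pairwise comparisons. ZNF185, a LIM-domain protein of the cytoskeleton, was below the threshold at 9.11 TPM and not called.

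The partners of the KRAB box were present in every library. TRIM28 itself was at 129.2 to 149.2 TPM, and SETDB1, the H3K9 methyltransferase that it recruits, at 28.8 to 41.5 TPM. Of the 18 genes of this list, SUMO2 alone was called, and only for KO against WT after irradiation, beside 3.59% of all genes. It was at 397.9, 385.0 and 371.5 TPM in WT and at 335.6, 343.5 and 324.8 TPM in KO cells. The difference was -0.20 ± 0.04 (SE, adjusted p = 0.017). HDAC2 had the largest difference there, at 0.86, and was not called. It was at 91.5, 108.0 and 52.3 TPM in WT and at 160.2, 118.9 and 164.9 TPM in KO cells. Libraries did not overlap in that comparison for 6 of the 18 (33.3%), 4 higher and 2 lower, beside 24.1% of all genes. Among other C2H2 families by symbol, none of the 14 ZFP genes and none of the 21 ZSCAN and ZKSCAN genes was called in any comparison, and 2 of the 37 ZBTB genes were called lower after irradiation in each line, beside 1.5% of all genes called lower in WT and 1.7% in KO cells. In either direction the background was 1.73% to 3.74%, at which none of 14 or 21 is no result about those families. Of the 235 ZNF genes tested below the level threshold, 1 was called for KO against WT without irradiation and 3 with it, beside 1.73% and 3.59% of all genes, and none for irradiation in WT or KO cells, beside 3.74% and 3.69%.

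The widest ranges of group means belonged, ZNF431 apart, to genes whose libraries differed strongly within groups. ZNF664 is the clearest case, with 4 libraries between 73.3 and 93.8 TPM and 8 between 180.3 and 198.5 TPM and none between. The 4 low libraries were unirradiated WT replicate 2, unirradiated KO replicate 1 and irradiated WT replicates 2 and 3. Its largest difference in the 4 pairwise comparisons was 0.75 ± 0.42 for KO against WT after irradiation (SE, adjusted p = 0.40), where 2 of the 3 WT libraries and 0 of the 3 KO libraries were low, and its radiation effects differed by 0.84 ± 0.59 (SE, adjusted p = 0.86).

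A further search, made after these values were seen, asked for a gap of 0.5 or more on the log2 scale between neighbouring libraries with at least 2 libraries on each side. It found 10 of the 175 members (5.71%), beside 4.30% of the 9390 tested genes with a mean of 10 TPM or more. ZNF84 was at 8.81 to 11.0 TPM in 4 libraries and at 22.7 to 27.8 TPM in 8, and ZNF512 was at 8.82 to 10.9 TPM in 2 and at 21.7 to 27.8 TPM in 10. ZNF268 was at 4.60 to 10.6 TPM in 9 libraries and at 19.8 to 24.4 TPM in 3, all of them unirradiated. ZNF302 was at 6.44 to 10.6 TPM in 8 and at 16.3 to 24.5 TPM in 4. The remaining 5 were ZNF48, ZNF281, ZNF587, ZNF395 and ZNF780A. None of the 10 was called in any comparison. The low libraries of ZNF664, ZNF84 and ZNF512 were spread over 3, 3 and 2 of the groups. Those of ZNF48, ZNF281 and ZNF587 were all WT libraries, from both treatments. For ZNF395 they were irradiated libraries of both lines, and for ZNF780A they lay in every group. The positions of the gaps were not themselves tested against line or treatment.

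**Figure D5:**
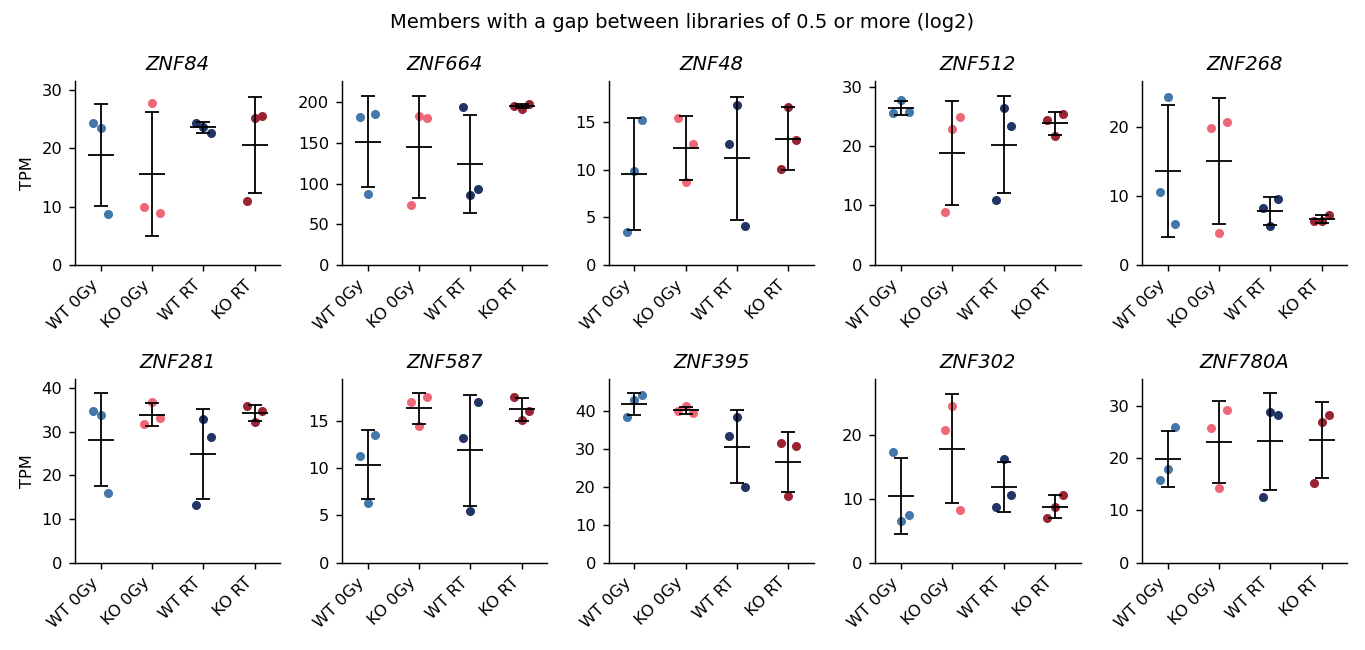
TPM in every library of the 10 members with a gap of 0.5 or more (log2) between neighbouring libraries, by line and treatment, with the mean (bar) and SD (whiskers) of 3 libraries. ZNF664 lies either at 73.3 to 93.8 or at 180.3 to 198.5 TPM, with low libraries in 3 of the 4 groups.

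Shared sequence was measured for every member, since reads that fit several genes can be divided between them. In 13 members, 10% or more of the 100-base windows of the longest coding transcript also occurred in another gene. Among them were ZNF286A (100%), ZNF395 (83.8%, with FBXO16), ZNF410 (76.0%), ZNF512 (31.9%), ZNF207 (17.3%) and ZNF587 (12.4%). Their levels are less certain for it, but these shares are not the error of a TPM value, which was not measured. None of the 8 called members shared more than 1.86% of its windows. ZNF84 shared none and ZNF664 2.54%, and the part of shared sequence in the gaps between libraries was not tested. Exons of another gene overlapped those of 39 members on the same strand and of 66 on the other strand.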

How the data were processed

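RNA of 12 FaDu libraries was enriched with oligo-dT beads and sequenced as 100 bp paired ends. The authors deposited TPM per gene in 1 table, and the submitters' processing notes name HISAT2, StringTie, DESeq2 and hg38, without versions. TPM is scaled to the same total in each library and keeps no depth, so the depth behind a value is unknown and no counting error could be given. Columns headed NT2 were taken as WT and those headed A63 as KO. All columns of values were used.

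The members and gene lists were chosen with earlier results of these data known. Differences in log2(TPM + 1) were tested in R 4.3.3 with eBayes (trend) of limma 3.58.1, in 1 fit of 4 group means with 8 residual degrees of freedom. Genes entered the fit if 3 or more libraries reached 1 TPM, with Benjamini-Hochberg adjustment over all of them. DESeq2, which the authors used, needs counts and was not run. The code was tested on simulated data first. Alternatives were quantile normalization, scaling by median-of-ratios factors, a pseudocount of 0.1, a filter on mean TPM at 5 or none, eBayes with a constant prior, a replicate block, the 6 compared libraries alone and each library left out.

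Positions are those of GENCODE 29 (GRCh38) and promoters those of RefSeq on GRCh38.p14. Proteins were translated from GENCODE 29 coding transcripts in place of the RefSeq proteins planned. C2H2 matches follow the spacing C, 2 to 4 residues, C, 12 residues, H, 3 to 5 residues, H. The KRAB and SCAN classes come from profiles built with pyhmmer 0.12.3 (E-value under 0.001) over all coding isoforms. The KRAB detector was changed with fold changes in view: a strict pattern gave 63 members and a wider one 67, both missed known KRAB genes, and the profile gave 85, so class counts depend on it.

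Genes are named by rule: in each comparison the members past the threshold, or the 3 smallest p-values where fewer than 3 passed, the 8 highest levels, 3 genes on each side of the level threshold, the 5 widest ranges of group means, and the role lists. Genes named for gaps between libraries, for shared sequence, for class extremes or for separation in both lines, and ZNF189 for its motif, were chosen after their values were seen.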

Additional observations from a re-analysis of the deposited data

How the results depend on the processing

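ZNF362 kept its call in all 20 alternatives in KO cells and in 19 of 20 in WT cells, and ZNF488 in all 20 in WT cells and in 17 in KO cells. The other calls were lost in 5 (ZNF431, ZNF746), 9 (ZNF195), 12 (ZNF503), 14 (ZNF131) and 15 (ZNF680) of 20, and no named difference changed sign. Called members numbered 0 for KO against WT without irradiation (0 to 1 with 1 library left out) and 3 for KO against WT with irradiation (0 to 4). They numbered 3 for irradiation in WT cells (2 to 4) and 4 in KO cells (1 to 3). With only the 6 libraries compared, they numbered 0 for KO against WT with irradiation, 1 for irradiation in WT cells and 1 in KO cells. Without a filter on low values, irradiation in KO cells called 2. Those fits held fewer samples or a larger number of genes, and the cause of the lost calls was not tested.

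Deviations of same-numbered libraries correlated between -0.060 and 0.064, and those of differently numbered ones between -0.070 and 0.057. No pairing by replicate number was seen in these values, but they cannot show whether same-numbered libraries were prepared together. With the replicate block, 2 members were called for irradiation in KO cells in place of 4, 2 in place of 3 for irradiation in WT cells, and 2 in place of 3 for KO against WT with irradiation.

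Scaling between libraries moved the members' medians by little, but across 0 in some comparisons. For KO against WT without irradiation, 38.3% of members were higher, against 46.9% with median-of-ratios factors and 50.9% with quantile normalization, where the median was 0.0041. For irradiation in KO cells 58.9% were higher, against 49.1% (median -0.0029) and 50.3%. For KO against WT with irradiation the shares were 41.7%, 47.4% and 51.4%, and for irradiation in WT cells 63.4%, 52.6% and 56.6%. No direction is therefore drawn from these medians.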
